A study of Mus musculus with 6 samples.

Results

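Marginal zone B cells and B1 cells are the innate-like branches of the mouse B cell lineage, and 10 genes used to recognise them were followed here: Cr2, Cd1d1, Cd36, Myof, Notch2, Dtx1, Asb2, Bhlhe41, Cd5 and Spn. They were selected by name from the 41669 gene symbols of the deposited table, as genes with known roles in these cells. The table describes B cells from the spleens of NZB/W F1 mice, the hybrid of the New Zealand Black and New Zealand White strains, which develops a lupus-like disease that is more severe in females. All 6 mice, 3 females and 3 males, were at the late stage of disease, and no healthy, young or parental-strain group is part of the comparison. Positive selection on a column gave the B cells, and RNA was extracted after 24 h of culture with CpG, unmethylated DNA that triggers Toll-like receptor 9. Each library came from a separate mouse, the age of the mice is not given in the sources used here, and no unstimulated culture was compared, so every level below is a level after CpG. The study set females against males, and the same contrast is made here for the 10 genes.

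Marginal zone B cells sit beside the blood sinus of the spleen, where they catch blood-borne antigen and turn quickly into antibody-secreting cells. Their fate depends on the receptor Notch2, which is triggered by the ligand Delta-like 1 on stromal cells, is cut by the protease ADAM10 and the γ-secretase complex, and then acts on genes through the DNA-binding protein RBPJ. B1 cells make natural antibody, much of it self-reactive, and NZB mice are known for an enlarged population of them. Many B1 cells carry CD5 and CD43 on their surface and need the transcription factor encoded by Bhlhe41.

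The 10 genes spanned a wide range of levels, and 2 of them, the Notch target gene Asb2 and the B1 marker gene Cd5, were listed at 0 in 6 of 6 libraries. Their base composition differed as widely. The longest coding transcript had a GC content of 38.4% for Cd36 and 41.4% for Cr2, the members with the highest levels per kilobase, and of 56.8% for Cd5, 59.4% for Asb2 and 62.5% for Dtx1, which were at 0 or near it. Myof, lower per kilobase than Dtx1, had 48.9% GC and goes against that order. To show the ends of the range of composition, for the other 5 of these genes a stretch of 60 coding bases from 1 exon is shown, on GRCm38 (GENCODE M21) and 5′ to 3′ on the coding strand, which is the minus strand for all 5. Capitals mark G and C, and each stretch was picked because its GC content lay closest to that of its whole transcript, so its composition is by construction. The stretches lie at chr5:17820512-17820571 (Cd36), chr1:195163528-195163587 (Cr2), chr12:103345748-103345807 (Asb2), chr19:10726469-10726528 (Cd5) and chr5:120710164-120710223 (Dtx1).
Cd36: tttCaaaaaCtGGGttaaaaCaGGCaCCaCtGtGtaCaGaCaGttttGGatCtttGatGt
Cr2: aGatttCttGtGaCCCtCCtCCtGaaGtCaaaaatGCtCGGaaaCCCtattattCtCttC
Cd5: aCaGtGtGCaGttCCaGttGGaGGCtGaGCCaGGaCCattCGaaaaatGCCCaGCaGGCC
Asb2: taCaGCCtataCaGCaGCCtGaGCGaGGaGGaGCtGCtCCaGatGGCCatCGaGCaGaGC
Dtx1: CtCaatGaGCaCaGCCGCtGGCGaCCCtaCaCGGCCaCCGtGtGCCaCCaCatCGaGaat

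Estimated counts summed to between 24089561 and 35659883 per library. Levels are given in CPM, the estimated count scaled to a common library total (counts per 1e6), and 3 counts, used as the floor of detection, came to 0.0841 to 0.125 CPM. The libraries matched the sex in their labels, with Xist at 5785 to 7149 CPM in females and 1.11 to 2.92 CPM in males and the Y-linked gene Ddx3y at 0.353 to 1.20 and 132 to 261 CPM. B cell genes were present in all 6, with Ms4a1 (CD20) at 1424 to 1658 CPM and Pax5 at 497 to 591 CPM, but Cd79a, a component of the B cell receptor, had only 4.61 to 29.4 CPM. All 10 pan B cell markers were tested, with 0 called with edgeR, DESeq2 or limma-voom and a median log2 fold change of -0.03, which was -0.73 without female mouse 1, -0.38 with limma-voom and -0.30 with mouse number as a block. Female mouse 3 stood apart, scoring 94.2 along the first principal component where the others scored -47.9 to 6.66, and its levels shifted with base composition. Set against the average of the other 5, its tested protein-coding genes under 40% GC had a median log2 difference of 0.26, and those of 55 to 60% GC one of -0.99.

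Compared per kilobase of transcript, Cd36 was the highest of the 10 at 180 ± 60.5 CPM per kb (SD, n = 6), followed by Cr2 at 29.4 ± 2.95 and Notch2 at 11.8 ± 1.72. The lowest library of each of these 3 genes lay above the highest library of the next gene in the order. Spn, Cd1d1 and Bhlhe41 came next at 2.58 ± 0.839, 1.83 ± 0.388 and 1.79 ± 0.912 CPM per kb, with overlapping libraries, so their order is not resolved. Dtx1 at 0.124 ± 0.0687 and Myof at 0.0450 ± 0.0353 CPM per kb closed the list and also overlapped.

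**Figure D1:**
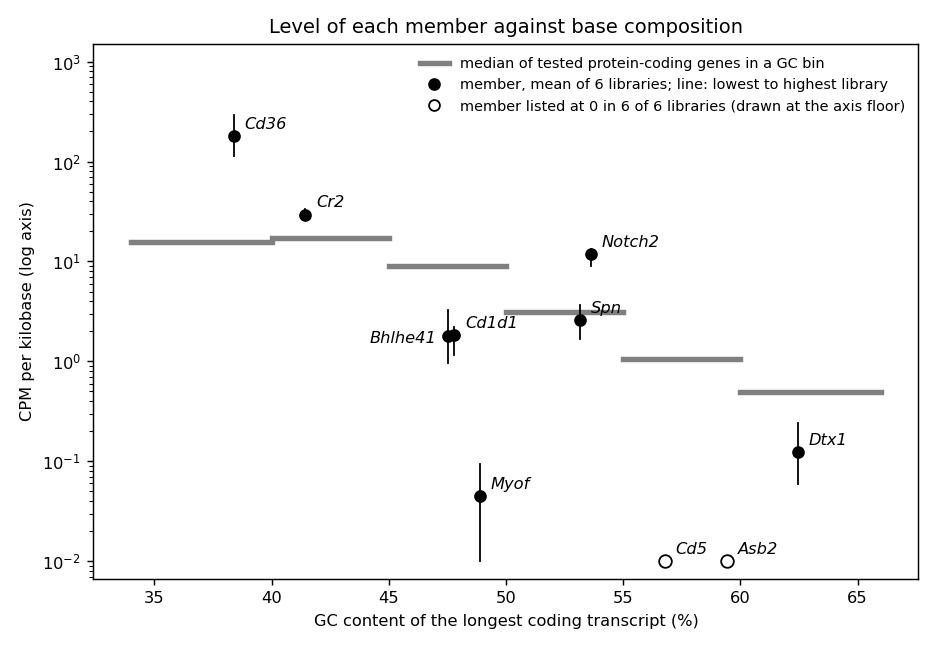
Mean level of each member in CPM per kilobase (log axis, 6 libraries) against the GC content of its longest coding transcript, with lines from the lowest to the highest library and grey bars at the median of tested protein-coding genes in each GC bin (the outer bins are drawn to 34 and 66%). Cd36 and Cr2 sit high at the AT-rich side, Cd5 and Asb2 are open circles at the axis floor, and the Myof line ends at the floor since 1 of its libraries was at 0.

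This order ran with base composition in the members, and levels tended to fall with GC content among tested protein-coding genes too. Across the 10 members the Spearman correlation of GC content with CPM per kb was -0.69, a description over genes that share the same libraries. These 10 include Asb2, Cd5 and Myof, which were not tested. Across 10650 tested protein-coding genes the correlation was -0.43. The share of all protein-coding genes at 0 throughout did not rise steadily with GC content. It was 56.5% under 40% GC, 22.6% at 50 to 55%, 26.1% at 55 to 60% and 44.4% over 60%. The median level of tested protein-coding genes was 15.6 CPM per kb under 40% GC, the bin of Cd36, and 17.1 at 40 to 45%, and fell from there to 8.91, 3.10, 1.06 and 0.492 in the bins 45 to 50, 50 to 55, 55 to 60 and over 60%. Set against genes within 2 percentage points of their own GC content, Cd36 lay at percentile 93.1, Notch2 at 83.2, Cr2 at 62.2, Spn at 47.2, Cd1d1 at 24.4, Bhlhe41 at 24.3 and Dtx1 at 11.6 of the tested ones. Notch2, at 53.6% GC, therefore ranked above Cr2 on this measure although its level per kilobase was lower. The part of base composition in the level of any member was not tested.

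Cr2 encodes the complement receptors CD21 and CD35, which marginal zone B cells carry at high density and which bind antigen coated with complement fragments. It had 209, 200 and 179 CPM in females 1 to 3 and 170, 177 and 162 CPM in males 1 to 3. All 3 females lay above all 3 males, as they did for 2.69% of the genes tested, and the gap between the lowest female and the highest male was small beside the spread within females. The log2 fold change, female over male, was 0.35 ± 0.13 (SE; 95% interval 0.05 to 0.65; unadjusted p = 0.0268 and adjusted p = 0.999 with edgeR), so Cr2 was not called. With library scaling by TMM factors, which correct for differences in RNA composition, the 3 females again lay above the 3 males, which held for 4.41% of genes. With the trends with transcript length and GC content removed from each library, the fold change was 0.18 and the sexes overlapped, with females at 161 to 223 and males at 159 to 186 CPM. Cr1l, the neighbouring complement regulator gene, had 101 to 135 CPM in females and 118 to 158 CPM in males (log2 fold change -0.04 ± 0.15).

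Cells other than B cells also carry Cr2 or Cd36, and some of their markers moved with sex. Of 15 monocyte and macrophage markers 6 were tested, 5 with a positive and 1 with a negative fold change. In 4 of the 6, Lyz2, Msr1, Spic and Emr1 (the F4/80 gene), every female lay above every male, as for 2.69% of all genes. None of the 6 was called with edgeR or limma-voom, and DESeq2, which called 0.288% of all genes, called 3 of them (Lyz2, Msr1, Spic). The 15 together came to 6.37 to 13.4 CPM in females and 2.26 to 3.24 CPM in males, while the macrophage receptor gene Csf1r had at most 0.137 CPM and Cd163 was listed at 0 throughout. The follicular dendritic cell marker Cxcl13 had 0.413 to 1.08 CPM in females and at most 0.03 CPM in males, and DESeq2 but neither edgeR nor limma-voom called it, with Clu, Mfge8 and C4b at 0.248 CPM or less and Madcam1 listed at 0. The part of such cells in the values of Cr2 and Cd36 was not tested. In bulk RNA, fewer cells of a type and less RNA per cell cannot be told apart.

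Cd36 encodes a scavenger receptor and fatty acid transporter that marks marginal zone B cells among splenic B cells and is also made by macrophages, platelets and endothelium. It had 383, 619 and 993 CPM in females 1 to 3 and 623, 513 and 548 CPM in males 1 to 3. The females held both the lowest and the highest value, so the males lay inside the female range, and the log2 fold change of 0.45 ± 0.39 (95% interval -0.46 to 1.37; edgeR adjusted p = 0.999) rested on female mouse 3. Without that library it was -0.13, and without female mouse 1 it was 0.78 (unadjusted p = 0.0232, edgeR adjusted p = 0.405). In the fit without female mouse 1, 12.1% of all genes tested had an unadjusted p under 0.05, against 2.89% with all 6 libraries. Female mouse 3 was also the library shifted towards AT-rich transcripts, and with the length and GC trends removed its Cd36 level was 848 CPM against 430 to 693 CPM in the other 5. Of 15 platelet, endothelial and erythroid markers 2 were tested, and the 15 summed to 16.7 to 43.0 CPM in females and 38.7 to 42.6 CPM in males, nearly all of it from Pecam1, which B cells also make. The platelet genes Pf4, Ppbp and Itga2b had at most 0.165 CPM in any library, and the endothelial genes Cdh5 and Kdr at most 0.544 CPM.

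Cd1d1 encodes CD1d, which presents lipids to natural killer T cells and is abundant on marginal zone B cells. It was low here, at 4.31, 2.24 and 3.35 CPM in females 1 to 3 and 3.89, 3.40 and 4.17 CPM in males 1 to 3. The sexes overlapped, with a log2 fold change of -0.07 ± 0.34 whose 95% interval, -0.86 to 0.72, still allows a change of either sign. Its near copy Cd1d2 had 0.0437 to 0.233 CPM, and 32.4% of the 31-base words of the Cd1d1 transcript also occur in Cd1d2. Reads from these stretches can be assigned to either gene, and how far this affects the Cd1d1 level was not tested.

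Myof encodes myoferlin, a membrane repair protein whose transcript is enriched in marginal zone B cells. Its counts were 0, 19.6 and 20.0 in females and 4.81, 7.70 and 8.56 in males, or 0 to 0.665 CPM and 0.153 to 0.281 CPM. It did not pass the low-count filter with all 6 libraries, and the females lay both above and below the males. Without female mouse 1, its library at 0, Myof passed and had an edgeR unadjusted p under 0.05, as did 12.1% of all genes tested in that fit. It was not called there.

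**Figure D2:**
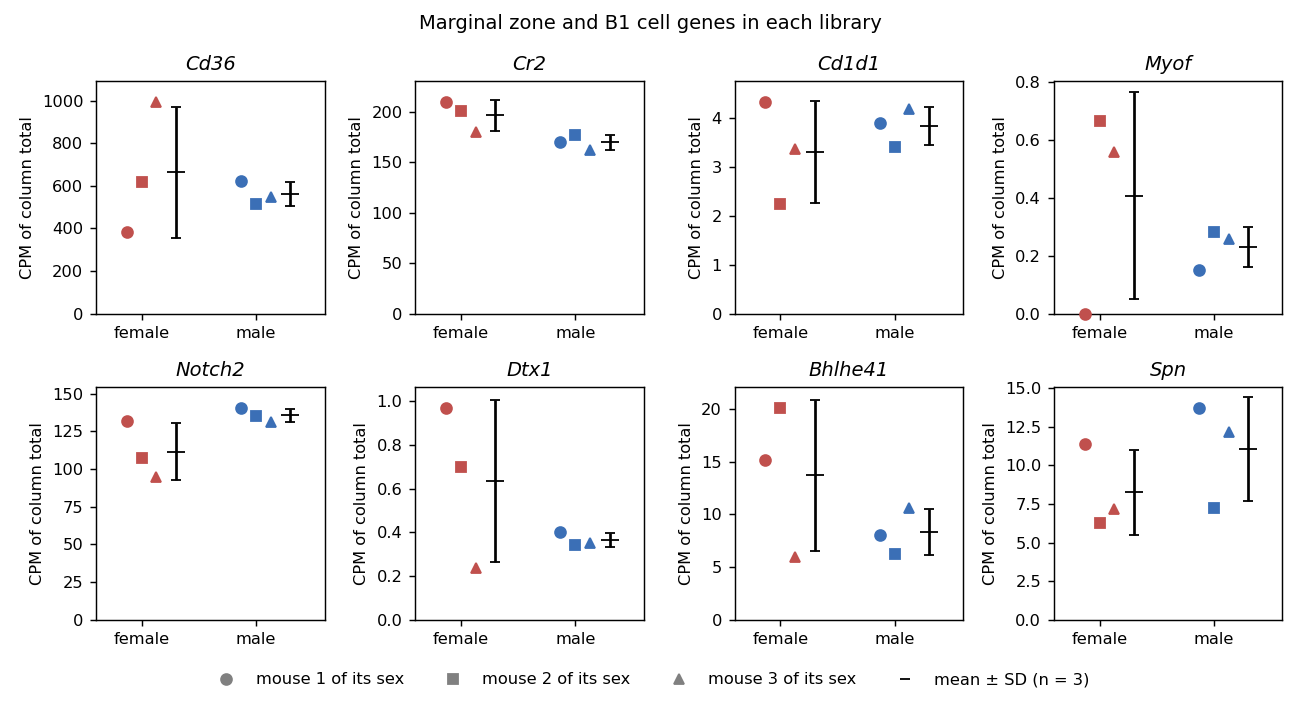
CPM of the library total for the 8 members with counts, 1 symbol per mouse, with the mean ± SD of 3 mice beside each sex (axes start at 0). Among these 8, only Cr2 separates the sexes on this scale, and all but Spn have a larger SD among females than among males.

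Notch2, the receptor that marginal zone B cells need, was well expressed and steady. Its levels were 132.1, 107.3 and 95.02 CPM in females 1 to 3 and 140, 135 and 131 CPM in males 1 to 3. Female mouse 1 lay among the males and the other females below them, for a log2 fold change of -0.16 ± 0.13 (95% interval -0.45 to 0.14; edgeR adjusted p = 0.999). With TMM factors all 3 females lay below all 3 males, at 108 to 124 against 126 to 133 CPM, as they did for 4.57% of genes. With the length and GC trends removed the order broke, since female mouse 3 was then the highest of the 6 at 160 CPM and the fold change was -0.03.

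Dtx1 encodes Deltex-1, a ubiquitin ligase that is a direct Notch target, and Asb2 encodes the substrate-binding subunit of another ubiquitin ligase, also induced by Notch. Dtx1 had 0.968, 0.700 and 0.238 CPM in females 1 to 3, which were 23.3, 20.6 and 8.49 counts, and 0.401, 0.345 and 0.350 CPM in males 1 to 3. Females 1 and 2 lay above the males and female mouse 3 below them. The log2 fold change of 0.83 ± 0.55 had a 95% interval of -0.44 to 2.11, without female mouse 3 it was 1.18 (edgeR unadjusted p = 0.0447), and without female mouse 1 it was 0.50 (edgeR unadjusted p = 0.439). Asb2 was listed at 0 in each library. It is given only as listed at 0, since Rps12, a ribosomal protein gene that every cell uses and that was looked up after the values were seen, was listed at 0 in all 6 libraries as well. Of the 1985 other protein-coding genes within 2 percentage points of the GC content of Asb2, 29.9% were at 0 throughout. That held for 6291 of all 21402 protein-coding genes, and for 49.3% of those as close to the GC content of Cd36, so zeros were not particular to GC-rich genes.

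Of 45 genes on the marginal zone and Notch pathway list, 34 passed the low-count filter, 22 with a positive and 12 with a negative fold change, the median was 0.06 against 0.00 for all 12172 genes tested (-0.05 to 0.15 over the alternatives, negative with library totals only and without female mouse 1), and 0 were called with edgeR, DESeq2 or limma-voom. The receptor gene Notch1 had 20.9 to 34.4 CPM (log2 fold change 0.39 ± 0.23) and the DNA-binding partner gene Rbpj 116 to 199 CPM (0.21 ± 0.26), both with overlapping sexes. The protease gene Adam10 reached 295 to 384 CPM, and the coactivator gene Maml2 46.6 to 65.0 CPM.

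Subunits of γ-secretase were uneven, with Aph1a at 6.23 to 22.2 CPM, Ncstn at 7.64 to 14.5, Psen2 at 1.61 to 2.73 and Psenen, a subunit the complex cannot work without, at 0 in 5 of 6 libraries. The fringe genes Mfng and Lfng, whose enzymes add sugars that tune Notch2 to its ligand, had 0.701 to 2.87 and 0.283 to 0.952 CPM. The 11 genes that did not pass the filter included the receptor gene Notch4 and the ligand genes Dll1, Jag1 and Jag2, which had at most 0.71 CPM, as well as 4 target genes. Of these targets, Nrarp and Heyl were listed at 0 and Hey1 and Hes5 had at most 0.102 CPM. Hes1, a repressor and the best known Notch target, had 4.39, 5.64 and 9.41 CPM in females and 4.15, 1.97 and 3.86 CPM in males. All females were above all males for Hes1, with a log2 fold change of 1.16 ± 0.48 (edgeR unadjusted p = 0.0415, adjusted p = 0.999). The same held for Id2, an inhibitor of E proteins, at 10.2 to 14.6 CPM in females and 2.00 to 7.35 CPM in males (1.32 ± 0.45, edgeR unadjusted p = 0.0199). These were the 2 genes of the 34 with an unadjusted p under 0.05 and a higher level in females, against 1.66% of all genes tested, and the only 2 of the 34 higher in every female on library totals (2.69% of all genes). Maml3, a coactivator gene, and Ptk2b, a kinase gene, were lower in every female on library totals, which held for 7.55% of all genes, a larger share than 2 of 34. Maml3 overlapped with TMM factors.

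Bhlhe41 encodes a transcriptional repressor that B1 cells need for their self-renewal and antibody repertoire. It had 15.1, 20.1 and 5.93 CPM in females 1 to 3 and 8.08, 6.25 and 10.6 CPM in males 1 to 3. Females 1 and 2 lay above all males, and female mouse 3 was the lowest of the 6 on library totals. The log2 fold change was 0.81 ± 0.40 (95% interval -0.12 to 1.74; unadjusted p = 0.0785, adjusted p = 0.999 with edgeR). Without female mouse 3 it was 1.11 (unadjusted p = 0.00518, edgeR adjusted p = 0.809), and without female mouse 2 it was 0.43. Removing the length and GC trends changed little, with 14.8, 20.3 and 6.62 CPM in females 1 to 3 and 6.02 to 9.93 CPM in males, and female mouse 3 then lay next to the lowest. Of the 31-base words of the Bhlhe41 transcript, 10.3% also occur in other annotated genes, mainly Gm43909, and how far this affects the Bhlhe41 level was not tested. Bhlhe40, the relative of Bhlhe41 with overlapping functions, was higher in level at 20.1 to 46.6 CPM and had a log2 fold change of 0.06 ± 0.28.

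Spn encodes CD43, a large sialoglycoprotein carried by B1 cells, plasma cells and T cells and missing from resting follicular B cells. It had 11.4, 6.24 and 7.16 CPM in females 1 to 3 and 13.7, 7.27 and 12.2 CPM in males 1 to 3. Female mouse 1 lay among the males and male mouse 2 among the females, and the log2 fold change was -0.30 ± 0.33 (95% interval -1.05 to 0.46; edgeR adjusted p = 0.999). It was -0.52 without male mouse 2, -0.48 without female mouse 1, -0.11 without female mouse 2, -0.12 without male mouse 1 and -0.09 with the length and GC trends removed.

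Cd5 encodes a surface inhibitor of antigen receptor signals that T cells carry at high and B1a cells at lower density. It was listed at 0 in 6 of 6 libraries, as was Il5ra, the receptor gene for the B1 growth factor interleukin 5. At 56.8% GC, Cd5 had 3312 other protein-coding genes within 2 percentage points, of which 25.7% were at 0 in every library. Of all 21402 protein-coding genes, 6291 were at 0 in every library. T cells share Cd5 and Spn. Of 17 T cell markers 7 were tested, Cd3e had at most 0.0339 CPM, Trac at most 0.0826 CPM and Thy1 was listed at 0 throughout. Of the 7, 2 had a positive and 5 a negative fold change, with a median of -0.17 (0.06 with the length and GC trends removed). Cd3d alone of them was higher in every female, as were 2.69% of all genes. It had 2.32 to 4.54 CPM in females against 0.476 to 2.00 CPM in males (1.75 ± 0.64, edgeR unadjusted p = 0.0257, adjusted p = 0.999). The 17 summed to 22.9 to 38.2 CPM in females and 30.6 to 49.6 CPM in males, most of it from Cd247 (3.95 to 18.7 CPM) and Il7r (6.87 to 21.8 CPM), and the part of T cells in the values of Spn was not tested.

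Of the 20 genes on the B1 cell list, 16 were tested, 12 with a positive and 4 with a negative fold change, the median was 0.24 against 0.00 for all genes (0.10 with library totals only, 0.39 without male mouse 2 and 0.41 with the length and GC trends removed), and 0 were called with edgeR, DESeq2 or limma-voom. Arid3a, a transcription factor gene that directs B1 development, had 26.9, 52.8 and 67.1 CPM in females against 25.6, 19.6 and 30.8 CPM in the males (1.15 ± 0.40, edgeR unadjusted p = 0.0226). Ptpn22, a phosphatase gene of antigen receptor signalling, had 50.7, 77.7 and 50.9 CPM in females against 52.5, 40.8 and 42.8 CPM in males (0.54 ± 0.22, edgeR unadjusted p = 0.0389). In both genes 1 male lay inside the female range. Of the 16, 1 other gene was higher in every female on library totals (2.69% of all genes), and 2 were with TMM factors (4.41%). On either scale 0 were lower in every female. An unadjusted p under 0.05 was found for 2 of the 16 with edgeR (2.89% of all genes). DESeq2 gave 5 (3.85%) and limma-voom 2 (3.25%). Fcrl5, an Fc receptor-like gene of marginal zone and B1 cells, was the most abundant of the list at 70.7 to 170 CPM, with a fold change of -0.14 ± 0.23.

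Across the 10 members, 7 passed the low-count filter, 4 with a positive and 3 with a negative fold change, and their median of 0.35 was that of Cr2. Without female mouse 3 there were 3 positive and 4 negative fold changes and the median was -0.13. With the length and GC trends removed there were 5 and 2, with a median of 0.14, and with the filter of 1 CPM in 3 libraries, which drops Dtx1, the median was 0.13. None of the 7 was called at a false discovery rate of 0.05 with edgeR, which called 0.0575% of the genes tested. DESeq2, which called 0.288%, and limma-voom, which called 0.0739%, called 0 of the 7 too. At an unadjusted p under 0.05, edgeR held 1 of the 7, Cr2 (2.89% of all genes), DESeq2 held 2, Cr2 and Bhlhe41 (3.85%), and limma-voom held Cr2 (3.25%).

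**Figure D3:**
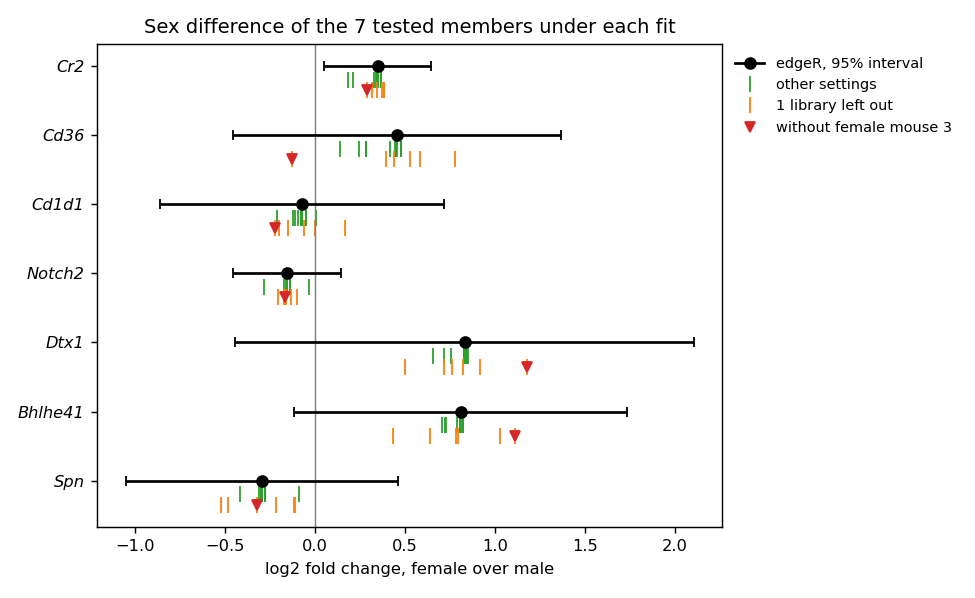
Log2 fold change, female over male, of the 7 tested members with its 95% interval from edgeR, and below it the values under other settings (green) and with 1 library left out (orange; red triangle without female mouse 3). The interval of Cr2 alone excludes 0, and Cd36 changes sign without female mouse 3.

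The members can be set beside the genes of follicular B cells, the main population of the spleen. Fcer2a encodes CD23, the surface marker by which follicular cells are told from marginal zone cells, which are CD21 high and CD23 low. It had 2.42, 1.49 and 0.808 CPM in females 1 to 3 and 3.75, 8.32 and 3.59 CPM in males 1 to 3. All females lay below all males, and the log2 fold change was -1.65 ± 0.48 (edgeR unadjusted p = 0.00994, adjusted p = 0.999; DESeq2 adjusted p = 0.244). Ighd, the IgD constant gene, had 21.7 to 41.0 CPM in females and 49.2 to 57.9 CPM in males (-0.57 ± 0.19, edgeR unadjusted p = 0.0165). Both were among the 3 of 11 follicular genes with an unadjusted p under 0.05 and a lower level in females, against 1.23% of all genes tested.

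In the 11, 9 fold changes were negative and 2 positive, the median was -0.25, and 0 were called with edgeR, DESeq2 or limma-voom. Without overlap between the sexes, 4 of the 11 were lower in every female, Fcer2a, Ighd and Cd55 among them, as were 7.55% of all genes, and 3 of 11 with TMM factors. The transcription factor genes Bach2 (262 to 365 CPM) and Foxo1 (141 to 160 CPM), the most abundant of the list, had fold changes of -0.08 ± 0.19 and 0.14 ± 0.17. The follicular median lay between -0.44 and -0.23 over the 17 alternatives. Of 9 plasmablast genes tested, 6 had a positive and 3 a negative fold change. Igj (37.7 to 48.4 CPM in females, 17.0 to 18.3 in males), Fam46c (67.8 to 151 and 39.8 to 48.3 CPM) and Prdm1 (22.1 to 61.5 and 11.7 to 12.9 CPM) were higher in every female, as were 2.69% of all genes. The 2 most abundant of the list, Ighm and Pou2af1, had fold changes of -0.17 ± 0.29 and -0.09 ± 0.14, with overlapping sexes. The list median was 0.02, and it ran from -0.06 without female mouse 1 to 0.38 without female mouse 3, with 0.30 without immunoglobulin genes and 0.24 with the length and GC trends removed. None of the 9 was called with edgeR or limma-voom (4 had an unadjusted p under 0.05 with each). DESeq2 called Igj, Fam46c and Prdm1, and the part of plasmablast share in the values above was not tested.

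**Figure D4:**
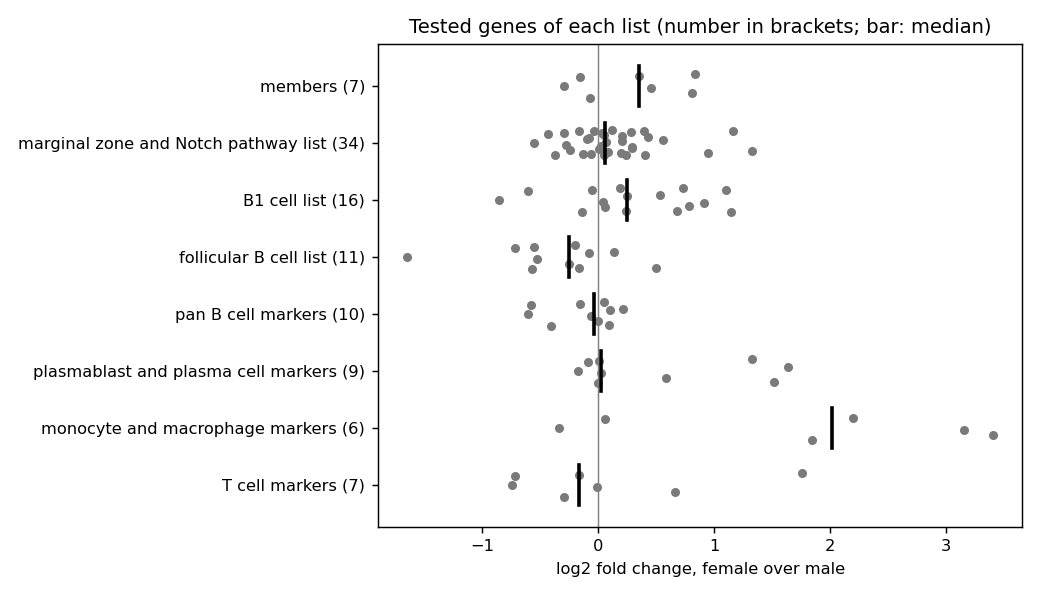
Log2 fold change, female over male, of every tested gene of 8 gene lists (dots; vertical scatter has no meaning) with the list median as a black bar. The members have a median of 0.35 (-0.13 without female mouse 3), the follicular list lies mostly below 0 with Fcer2a at -1.65, and 4 macrophage markers lie above 1.8.

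The spread between libraries differed among members. The ratio of the highest to the lowest library was 1.30 for Cr2 and 1.48 for Notch2, 1.92 for Cd1d1 and 2.19 for Spn, and 2.59, 3.38 and 4.07 for Cd36, Bhlhe41 and Dtx1. In female mouse 3, set against the average of the other 5, Cd36 was higher by 0.89 on the log2 scale, Cr2 stood at -0.03, Notch2 at -0.44, Spn at -0.50, Bhlhe41 at -1.02 and Dtx1 at -1.22. Removing the length and GC trends raised Notch2 and Spn in that library to the highest of the 6 and lowered Cr2 there to 161 CPM, next to the lowest, while Cd36 remained the highest.

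**Figure D5:**
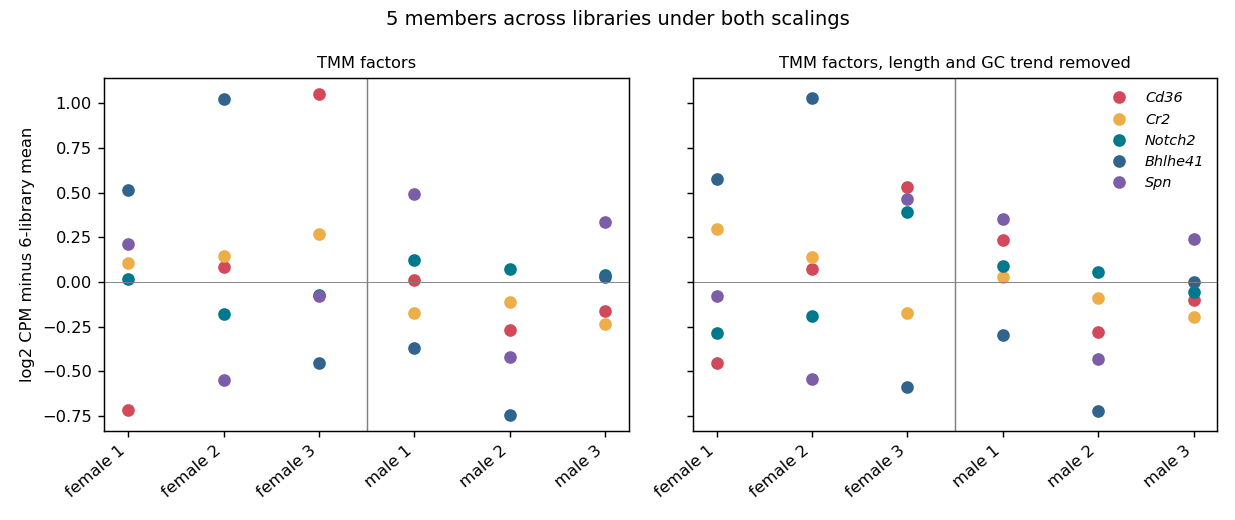
Log2 CPM of 5 members minus their mean over the 6 libraries, with TMM factors (left) and with the trends with transcript length and GC content also removed (right). The points of female mouse 3 change most between the panels for Notch2, Spn, Cr2 and Cd36, and those of Bhlhe41 change little.

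The genes with the most similar pattern over the 6 libraries were found from log2(CPM + 0.5), centred on its own mean, among 10115 other tested genes of at least 1 CPM (10116 for Dtx1). By the mean absolute difference, the closest to Cr2 were Ankrd27 (0.0430) and Nup153 (0.0436), to Notch2 Nuak2 (0.0302) and Tlr6 (0.0322), and to Cd36 Unkl (0.0779) and Gm26836 (0.0945). Those closest to Bhlhe41 were Nek6 (0.155) and Tmem161b (0.169), to Spn Lbh (0.0795) and Adarb1 (0.0797), to Cd1d1 Zbtb18 (0.0610) and Klhl6 (0.0657), and to Dtx1 Kdm5c (0.0640) and Lax1 (0.0684). No member was among the 2 closest genes of another member. With 6 libraries, of which 1 stands apart, these are descriptions of shared spread.

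On GRCm38, the members lie at chr1:195136811-195176716 (Cr2), chr3:86995834-86999441 (Cd1d1), chr3:98013527-98150361 (Notch2), chr5:17781690-17888801 (Cd36), chr5:120680202-120711927 (Dtx1), chr6:145858243-145865558 (Bhlhe41), chr7:127132232-127137823 (Spn), chr12:103321142-103356001 (Asb2), chr19:10717116-10739002 (Cd5) and chr19:37899036-38043577 (Myof). All 10 are autosomal protein-coding genes, and all but Notch2 are on the minus strand. Reads of the F1 mice come from NZB and NZW alleles, while this reference is C57BL/6J, and the effect of strain differences on these counts was not tested.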

How the data were processed

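RNA sequencing of CpG-cultured splenic B cells from 3 female and 3 male mice was used. The authors deposited estimated counts per gene symbol. The tools named are kallisto and DESeq2, with build GRCm38.p6, per the submitters' processing notes. Versions, annotation and settings were not given in the sources used here. All estimated counts were rounded to whole numbers for tests. GENCODE M21 matched 40159 of 41669 symbols (96.38%), 932 through a RefSeq synonym, and gave lengths, GC content and positions. Emr1 and 4632428N05Rik were used for Adgre1 and Vsir.

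The sexes were compared in R 4.3.3 by the quasi-likelihood test of edgeR 4.0.16 (filterByExpr by sex, TMM factors, glmQLFit, glmQLFTest, a single term for sex, Benjamini-Hochberg adjustment over 12172 genes, false discovery rate 0.05). The biological coefficient of variation was 0.351. A standard error is the fold change divided by the square root of F, and 95% intervals use the fit's degrees of freedom. Alternatives used DESeq2 1.42.0, limma 3.58.1 (voom) and other scalings, filters and left-out libraries. Trends with length and GC were removed from each library by natural splines (4 degrees of freedom). The edgeR, DESeq2, limma-voom, replicate block and trend-removed fits were also run on simulated counts. Those counts held no shift with length or GC content, so they do not show how the fits behave in libraries with such a shift. Figures used matplotlib 3.10.9.

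The members and lists were chosen with earlier results of these data known. Named beside the 10 members were, from each list, the 2 of lowest p where no gene was called, and the 2 most abundant, of which those bearing on the members are printed and some are not reported here, and Cd1d2, Notch1, Rbpj, Bhlhe40, Fcer2a, Xist and Ddx3y. Other list genes, Cr1l and Rps12 were chosen after their values were seen. The labels give the mice of both sexes the numbers 1 to 3 with no sign that the numbers pair animals. Intervals and floors at 3 counts reflect counting and animal spread only.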

Additional observations from a re-analysis of the deposited data

How the results depend on the processing

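No member was called under any of 17 alternatives. Cr2, Notch2, Dtx1, Bhlhe41 and Spn kept the sign of their fold change in every alternative that tested them (Dtx1 did not pass the filter of 1 CPM in 3 libraries). Cd1d1 turned to 0.0052 with the length and GC trend removed, and ran from -0.22 to 0.17 with 1 library left out, positive without female mouse 2. Cd36 ran from -0.13 to 0.78, negative without female mouse 3. An unadjusted p under 0.05 for Cr2 was found in 11 of 17 alternatives, and not with library totals only, with the trend removed, with the replicate block (0.0626), or without female mouse 2, male mouse 1 or male mouse 3. With 1 library left out, Notch2 ran from -0.20 to -0.10, Dtx1 from 0.50 to 1.18, Bhlhe41 from 0.43 to 1.11 and Spn from -0.52 to -0.11. The median of the 7 members tested with all libraries ran from -0.13 to 0.38. Over all genes, 3 were called higher and 4 lower in females. These counts were 24 and 11 with DESeq2, 5 and 6 with no low-count filter, and 6 and 5 with the trend removed, and ran from 2 to 6 and from 1 to 6 with 1 library left out. They were 6 and 6 without female mouse 1 or 3, 3 and 1 without female mouse 2 or male mouse 2, and 2 and 2 without male mouse 1. With library totals only, the median over all genes moved to -0.12 (log2), and those of the members shifted with it. The replicate block, with mouse number as a factor, gave 0.35 for Cr2 and called 3 and 4 genes. Same-numbered libraries had correlations of 0.22, 0.042 and 0.069 of their deviations from the mean of their sex. With 3 mice per sex these values cannot settle whether the numbers pair the mice. Dtx1 and Myof rest on fewer than 25 counts per library, which limits what could be detected for them.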
